A study of Mus musculus with 7 samples.

Results

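Described here are 10 genes of the vascular endothelium measured in mouse hearts: Aplnr, the VEGF receptor genes Kdr and Flt1, the angiopoietin receptor gene Tek and its relative Tie1, and Eng, Nos3, S1pr1, Emcn and Egfl7. They were taken by gene symbol, and all 10 were found among the 20343 complete rows of the count table. Each of them was also among the 7667 genes left by the filter on low counts. Aplnr was chosen by its difference between the groups of hearts in this same table, and the other 9 as endothelial genes whose values were known. The differences below are therefore descriptions of these hearts, with no test, except where a gene outside the 10 is named with an adjusted p.

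All hearts came from NSG-DR1 mice (strain NSG-DRB1*0101), immunodeficient animals that lack their own lymphocytes and carry a human HLA-DR1 transgene. The 4 control hearts were from untreated mice, and the other 3 from mice into which human CD4+ T cells had been transferred. Tissue of the cardiac apex was collected 6 weeks after that transfer. Beyond separate titles, the labels do not say whether each heart came from a mouse of its own. The number of cells given, and the age and sex of the mice, are not given in the labels. The libraries held between 16402194 and 25190580 counts over the part of the genome analysed, which runs from chromosome 1 to the start of chromosome 8. Cardiomyocyte genes on the marker list (8 in the table) summed to between 110400 and 138000 CPM (read counts scaled to the library total) in the 7 hearts. The labels do not say whether hearts were handled in batches. The identifiers of control heart 1 and transferred heart 1 contain letters and those of the other 5 hearts are numbers alone, so the difference of each gene is also given within each form.

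Endothelial cells line every vessel and the chambers of the heart. Apelin acts on its receptor, the product of Aplnr, a G protein-coupled receptor of veins and capillaries that relaxes vessels and raises cardiac contractility. VEGF acts through Kdr (VEGFR2), the main signalling receptor for endothelial growth and permeability, while Flt1 (VEGFR1) binds VEGF tightly and limits what reaches Kdr. Angiopoietins act through Tek (Tie2), which keeps vessels quiescent, and Tie1 is a partner receptor that modulates Tek. Endoglin (Eng) is a co-receptor for BMP ligands, Nos3 makes endothelial nitric oxide, S1pr1 is the sphingosine-1-phosphate receptor that tightens junctions, Emcn is a sialomucin of venous and capillary surfaces, and Egfl7 is a secreted endothelial protein.

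Aplnr lies on chromosome 2 (GRCm38, 85136360 to 85139923, plus strand, 3564 bases of combined exons). Its level was 146.2, 108.6, 129.4 and 144.2 CPM in control hearts 1 to 4. In transferred hearts 1 to 3 it was 59.2, 74.7 and 77.1 CPM. Every transferred heart was thus below every control heart, with a gap between the highest transferred and the lowest control value. The group means were 132 ± 17.4 CPM (SD, n = 4) and 70.3 ± 9.74 CPM (SD, n = 3), which the fit puts at -0.91 (standard error 0.13) as a log2 fold change, or -46.8%. The smallest Aplnr count in a heart was 1168, which sets a 95% counting error of about 5.74% there, well inside the spread between hearts. A fractional part was present in 1 of the 7 Aplnr values, and no other gene row overlapped it.

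**Figure D1:**
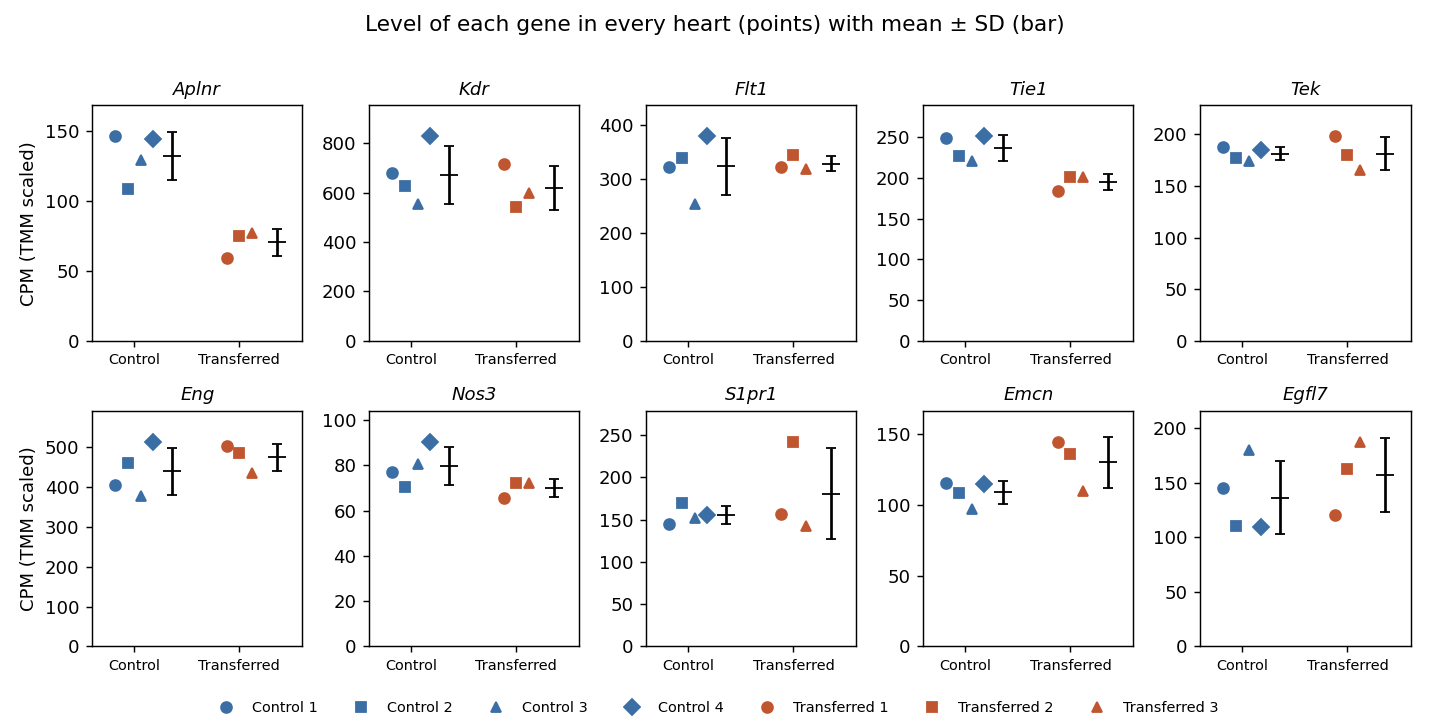
Level of each of the 10 genes (y axis, CPM scaled by TMM, from 0) in the 4 control and 3 transferred hearts, one point per heart with the group mean ± SD as a bar beside it. Aplnr lies between 108.6 and 146.2 CPM in control hearts and between 59.2 and 77.1 CPM in transferred hearts, and Tie1 is the only other gene whose groups do not overlap.

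Of the 10 genes, 1, Aplnr, was past an adjusted p of 0.05 in the edgeR fit over all genes, where 0.235% of all tested genes were. Since this contrast chose it, nothing is read from that count. The call did not hold when control heart 1, 2, 3 or 4 or transferred heart 2 was left out, where the log2 fold change of Aplnr was -0.85, -0.99, -0.92, -0.86 and -0.95. In all 7 fits that left out a heart it lay between -0.99 and -0.80. Between the 2 hearts with letters in their identifier the log2 CPM of Aplnr differed by -1.30, and among the other 5 hearts by -0.74. Its log2 fold change ranked 120 from the lowest among the 7667 tested genes.

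The other 9 genes had a median log2 fold change of 0.02, beside -0.002 for all tested genes, and ranged from -0.28 to 0.26. Of them, 6 were above 0 and 3 below. Aplnr minus the median of the 9 was therefore -0.93 on the log2 scale, and Aplnr minus Tie1, the lowest of them, was -0.63. In each of the 17 fits tried, Aplnr had the lowest log2 fold change of the 10 genes.

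**Figure D2:**
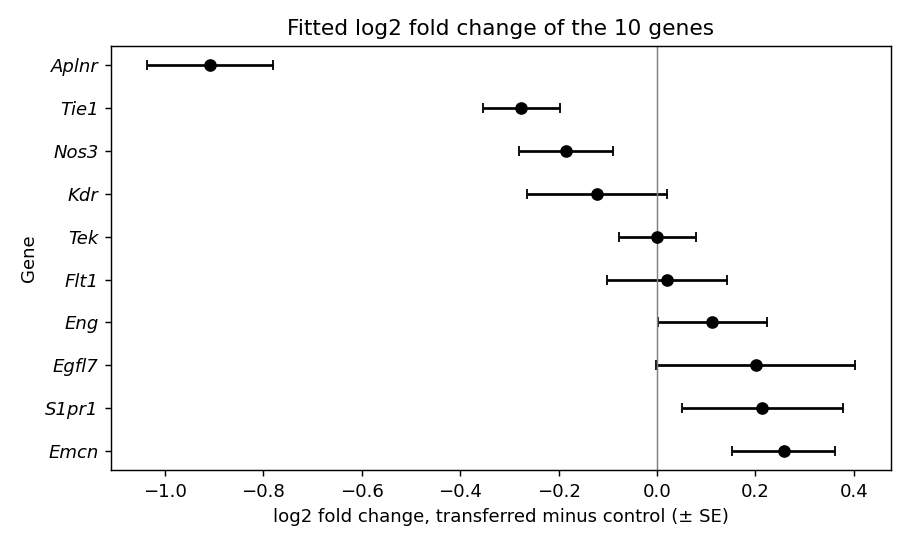
Fitted log2 fold change, transferred minus control, of the 10 genes (x axis, point ± standard error), ordered by value (y axis). Aplnr stands at -0.91 and the other 9 genes between -0.28 and 0.26.

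The same comparison was made inside each heart, where the scaling of the libraries cancels, as the log2 CPM of Aplnr minus the median log2 CPM of the other 9. This difference was -0.36, -0.71, -0.48 and -0.36 in control hearts 1 to 4 and -1.64, -1.43 and -1.28 in transferred hearts 1 to 3. The lowest control heart, 2, was still above the highest transferred heart, 3. The means were -0.48 ± 0.16 (SD, n = 4) and -1.45 ± 0.18 (SD, n = 3), so the groups differed by -0.97. The median of the 9 itself was 7.51 ± 0.04 in control and 7.58 ± 0.07 in transferred hearts, and the groups overlapped. When Aplnr was set against each of the 9 genes in turn, all 3 transferred hearts were below all 4 control hearts, and the difference between group means ran from -1.16 for Emcn to -0.63 for Tie1. Between the 2 hearts with letters in their identifier the difference from the median was -1.28, and among the other 5 hearts -0.84. In bulk tissue, fewer cells of a type and less RNA per cell cannot be told apart.

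**Figure D3:**
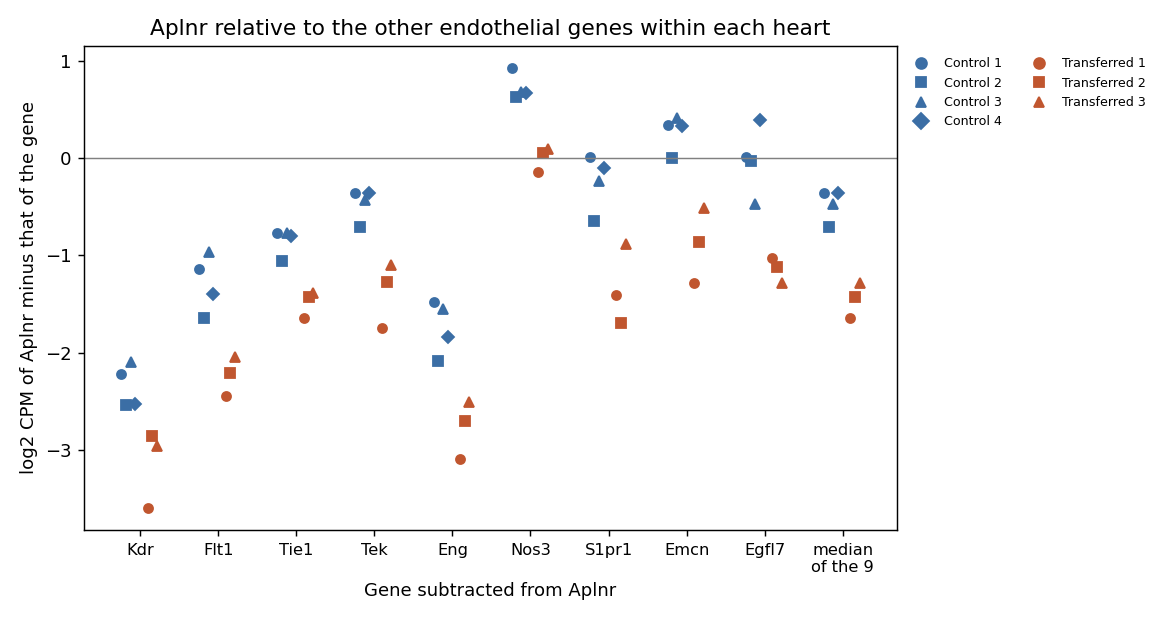
log2 CPM of Aplnr minus that of each of the other 9 genes, and minus their median (y axis), in each control and transferred heart (points). The 3 transferred hearts lie below the 4 control hearts for every gene, and for the median they lie between -1.64 and -1.28 against -0.71 to -0.36.

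Of the angiopoietin receptor genes, Tie1 (chromosome 4, 118471191 to 118489849), the partner receptor, was lower in transferred hearts. Tie1 was at 249, 226.5, 220.7 and 251.4 CPM in control hearts and 184.3, 201.0 and 201.6 CPM in transferred hearts, again without overlap. Its log2 fold change was -0.28 (standard error 0.08), and it lay between -0.31 and -0.23 when any 1 heart was left out. Tie1 log2 CPM differed by -0.43 between the 2 letter-form hearts and by -0.21 among the other 5. Without overlap in this direction were 2 of the 10 genes, Aplnr and Tie1, where 5.22% of all tested genes were, and 0 of the 10 were higher without overlap, where 5.99% of all tested genes were. Tek (chromosome 4, 94739086 to 94874976), the receptor that binds angiopoietins, was at 187.6, 177.6, 174.6 and 185.3 CPM in control hearts and 198.3, 180.2 and 165.7 CPM in transferred hearts. Its means of 181.3 ± 6.16 (SD, n = 4) and 181.4 ± 16.3 CPM (SD, n = 3) were nearly the same, and the log2 fold change was 0.0009 (standard error 0.08), from -0.07 to 0.06 when 1 heart was left out. Tek had opposite signs in the 2 forms of identifier, 0.08 between the letter-form hearts and -0.05 among the other 5. The log2 ratio of Tie1 to Tek within a heart was 0.38 ± 0.05 (SD, n = 4) in control and 0.11 ± 0.20 (SD, n = 3) in transferred hearts, and the groups did not overlap.

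The VEGF receptor genes lie on chromosome 5. Kdr (75932827 to 75979072) was at 680.4, 629, 554 and 829.7 CPM in control hearts and 716, 541 and 598 CPM in transferred hearts, and the groups overlapped. Its log2 fold change was -0.12 (standard error 0.14), from -0.24 without transferred heart 1 to -0.01 without control heart 4, the highest. Flt1 (147561604 to 147726438) was at 322.7, 339, 253 and 379 CPM in control hearts and 321, 345 and 318 CPM in transferred hearts. Its log2 fold change of 0.02 had a standard error of 0.12. That value changed sign without control heart 3, the lowest (-0.08), and without transferred heart 2 (-0.02), and was 0.11 without control heart 4. The log2 ratio of Flt1 to Kdr within a heart was -1.06 ± 0.11 (SD, n = 4) in control and -0.90 ± 0.25 (SD, n = 3) in transferred hearts, and the groups overlapped. Between the 2 hearts with letters in their identifier the log2 CPM of Kdr differed by 0.07, and among the other 5 by -0.22. For Flt1 these values were -0.01 and 0.05, so neither gene had one direction in both forms.

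Nos3 (chromosome 5, 24364816 to 24384474) was at 76.9, 70.3, 80.8 and 90.4 CPM in control hearts and 65.4, 72.3 and 72.3 CPM in transferred hearts. Control heart 2 lay among the transferred hearts, and the log2 fold change was -0.19 (standard error 0.10), from -0.24 without control heart 2 to -0.12 without control heart 4. Eng (chromosome 2, 32646595 to 32682669) was at 406.9, 459.7, 378 and 514 CPM in control hearts and 503, 486.5 and 437 CPM in transferred hearts. Its log2 fold change was 0.11 (standard error 0.11), and it lay between 0.05 without control heart 3 and 0.20 without control heart 4. Within the forms of identifier, Nos3 log2 CPM differed by -0.23 (letters) and -0.15 (numbers), and Eng by 0.31 and 0.04. The last bases of both genes overlap a gene on the opposite strand, Atg9b (50 to 97 counts a heart) for Nos3 and Fpgs (248.5 to 344 counts a heart) for Eng. Whether strand was used in counting is not given in the sources used here, so reads there cannot be told apart. Nos3 itself held 1291 to 2105 counts a heart and Eng 8149 to 10681.5.

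S1pr1 (chromosome 3, 115710433 to 115715055) was at 145.5, 170.2, 152.2 and 155.0 CPM in control hearts and 157, 242 and 142.5 CPM in transferred hearts. Transferred heart 2 stood alone at the top, and the other transferred hearts lay inside or below the control range. The log2 fold change was 0.21 (standard error 0.16), and turned to -0.06 without transferred heart 2. Emcn (chromosome 3, 137341062 to 137431069) was at 115.5, 108.1, 97.5 and 114.5 CPM in control hearts and 144.6, 135.8 and 110.1 CPM in transferred hearts. Transferred heart 3 was inside the control range, and the log2 fold change was 0.26 (standard error 0.10), the highest of the 10. It lay between 0.18 without transferred heart 1 and 0.37 without transferred heart 3. Between the letter-form hearts and among the other 5, log2 CPM differed by 0.11 and 0.23 for S1pr1 and by 0.32 and 0.20 for Emcn.

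Egfl7 (chromosome 2, 26581083 to 26592682) varied widely between control hearts, at 145.4, 110.7, 179.9 and 109.9 CPM, and was at 120.6, 162.6 and 187.7 CPM in transferred hearts. Its log2 fold change of 0.20 had a standard error of 0.20 and ran from 0.05 without transferred heart 3 to 0.36 without control heart 3. Egfl7 log2 CPM differed by -0.27 between the 2 hearts with letters in their identifier and by 0.43 among the other 5. The span of Egfl7 also holds the row of Mir126a, which encodes miR-126, a microRNA abundant in endothelium. Its sequences are shown because the microRNA shares the locus of a member. The mature 3p arm lies at chr2:26591402-26591423 and the hairpin at chr2:26591357-26591429, both on the plus strand, from RefSeq on GRCm38.p6, with U for T. Capitals mark the seed, bases 2 to 8, in the first and the mature arm in the second.
miR-126a-3p: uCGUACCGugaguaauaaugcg
Mir126a hairpin: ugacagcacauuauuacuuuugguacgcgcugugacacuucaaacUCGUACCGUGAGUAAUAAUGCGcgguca
The Mir126a row held 10, 9.5, 20 and 3 counts in control hearts and 2, 7 and 31 counts in transferred hearts, so the groups overlapped. Libraries of polyadenylated RNA do not measure the mature microRNA, and these counts say nothing of its level. Mir126a is named outside the rule for named genes, after its values were seen.

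Upstream windows of 250 bases were taken from RefSeq (GRCm38.p6), where 7 of the 10 genes matched, all but Aplnr, Nos3 and S1pr1. Shown are the 3 windows that end just before the first base of the gene as the count table has it: Tie1, without overlap between the groups, and Eng and Egfl7, with overlap. They are written 5′ to 3′ on the strand of the gene, and capitals mark AGGAAG or its reverse complement CTTCCT, letters that ETS factors of endothelium often bind. The Tie1 window is chr4:118489850-118490099 on the minus strand, the Eng window chr2:32646345-32646594 and the Egfl7 window chr2:26580833-26581082, both on the plus strand.
Tie1: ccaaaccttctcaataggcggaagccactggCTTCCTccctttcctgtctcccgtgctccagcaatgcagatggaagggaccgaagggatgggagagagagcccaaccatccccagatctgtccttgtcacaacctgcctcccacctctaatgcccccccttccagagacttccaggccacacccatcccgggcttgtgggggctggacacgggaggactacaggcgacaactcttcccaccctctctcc
Eng: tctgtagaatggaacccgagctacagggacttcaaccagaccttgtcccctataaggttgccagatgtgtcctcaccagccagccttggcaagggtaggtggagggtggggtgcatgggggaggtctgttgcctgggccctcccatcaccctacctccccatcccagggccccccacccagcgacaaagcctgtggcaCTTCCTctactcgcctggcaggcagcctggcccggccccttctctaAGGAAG
Egfl7: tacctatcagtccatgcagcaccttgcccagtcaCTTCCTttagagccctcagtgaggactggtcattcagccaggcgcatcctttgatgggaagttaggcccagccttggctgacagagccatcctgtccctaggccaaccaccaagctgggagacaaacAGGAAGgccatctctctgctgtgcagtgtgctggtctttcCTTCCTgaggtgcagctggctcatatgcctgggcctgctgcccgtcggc
Of the 9 windows listed for these genes (3 of them for Egfl7), 6 held AGGAAG on either strand, beside 29.5% of the 32851 windows of this length in the table. AACAGGAA, a run in which sites for FOX and ETS factors adjoin, was in 2 windows, of Egfl7 and Emcn, beside 2.25% of all, and there it overlapped AGGAAG. A single window, of Flt1, held TATAAA, beside 12.4% of all. These matches are a description of letters only.

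Levels of different genes were compared per length, as CPM per kilobase of combined exons. In control hearts Eng was highest at 123 ± 16.8 (SD, n = 4), followed by Kdr at 87.6 ± 15.1, Egfl7 at 85.7 ± 20.9, Emcn at 73.7 ± 5.63, Tie1 at 61.1 ± 4.01, S1pr1 at 51.4 ± 3.45, Aplnr at 37.1 ± 4.88, Tek at 36.9 ± 1.25, Flt1 at 23.5 ± 3.84 and Nos3 at 19.2 ± 2.02. The control ranges of Kdr and Egfl7, of Egfl7 and Emcn, of Aplnr and Tek and of Flt1 and Nos3 overlapped, so the order within these pairs is not larger than their spread. The ranges of Eng and Kdr also overlapped, although Eng was above Kdr in 4 of 4 control and 3 of 3 transferred hearts. Aplnr was above Tek in 3 of 4 control hearts and in 0 of 3 transferred hearts. At 19.7 ± 2.73 CPM per kilobase (SD, n = 3) in transferred hearts it stood between Flt1 at 23.9 ± 1.05 and Nos3 at 16.9 ± 0.96.

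**Figure D4:**
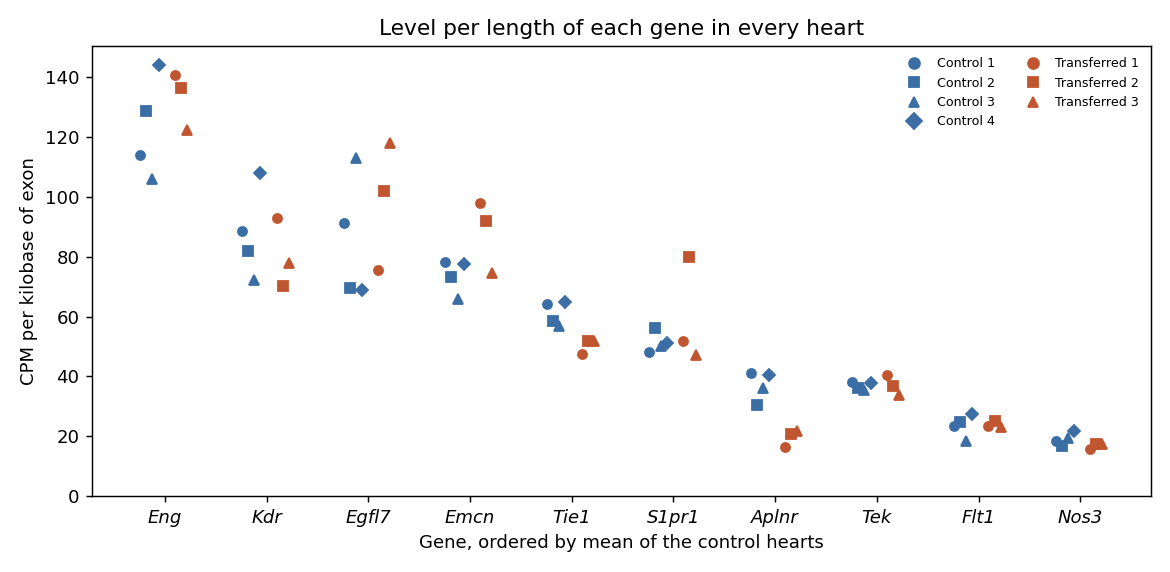
CPM per kilobase of combined exons (y axis, from 0) of each gene (x axis, in the order of the control means), with one point per control and transferred heart. Aplnr lies beside Tek in control hearts (37.1 and 36.9 on average) and below Flt1 in transferred hearts (19.7 and 23.9).

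The genes most like Aplnr over the 7 hearts, by Pearson's r of log2 CPM among 7003 tested genes with a mean of at least 1 CPM, were Gm32753 (r = 0.98), Mreg (r = 0.97), Syt3 (r = 0.97), Wars2 (r = 0.97) and Tie1 (r = 0.96). These points share their libraries and include the difference between the groups that chose Aplnr. After the group means were subtracted, the highest values over the same 7 hearts were for Gucy1a1 (r = 0.99), a subunit of the nitric oxide receptor, Nr2f2 (r = 0.98), a transcription factor of veins, Zfp235 (r = 0.97), Ociad2 (r = 0.97) and Maz (r = 0.96). Among the other 9 members, r with Aplnr was then 0.83 for Tie1, 0.77 for Nos3 and 0.53 for Egfl7, and between -0.32 and 0.14 for the other 6. The 3 nearest tested genes before Aplnr on its chromosome were Ssrp1, Tnks1bp1 and 4930443O20Rik, with log2 fold changes of 0.08, -0.02 and 0.51. The 3 nearest after it were Lrrc55, Gm52520 and Olfr1033, with -0.36, 0.54 and 0.46. None of these 6 was past an adjusted p of 0.05 by edgeR.

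Ligands and signalling partners of these receptors were taken from a list of 49 symbols, of which 21 were in the table and 20 were tested. By edgeR, 0 of the 20 passed an adjusted p of 0.05, with 0 at an unadjusted p under 0.05, and 0 passed by DESeq2 and by limma-voom. Of all 7667 tested genes, edgeR called 18 and DESeq2 252, and 954 had an unadjusted p under 0.05 by edgeR. The median log2 fold change of the 20 partners was 0.08, beside -0.002 for all tested genes. It lay between 0.03 (without control heart 1) and 0.12 (without control heart 4) when 1 heart was left out. The partners ranged from -0.25 for Angpt2 to 0.43 for Mir126a, whose low counts are given above. The highest with a mean of at least 1 CPM was Klf4, a transcription factor of quiescent endothelium, at 0.30; it is named outside the rule. Around the growth factor receptors, Angpt2, the ligand that antagonises Tek, was at 20.1 ± 4.995 CPM (SD, n = 4) against 16.8 ± 3.995 CPM in 3 transferred hearts (log2 fold change -0.25). Nrp2, a VEGF co-receptor, was at 158 ± 28.0 against 159.6 ± 19.8 CPM, and Svep1, a matrix protein that binds Tie1, at 24.8 ± 6.31 against 28.4 ± 3.13 CPM. Gnai3, an inhibitory G protein subunit of the kind Aplnr couples to, was at 68.8 ± 5.36 against 75.9 ± 4.24 CPM.

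Downstream of Eng, the BMP receptor gene Bmpr2 was at 255 ± 39.0 CPM (SD, n = 4) against 270.7 ± 14.8 CPM (SD, n = 3). Its target genes Id1 and Id3 were at 110.1 ± 29.3 against 117 ± 0.86 CPM and 132.7 ± 24.4 against 134.8 ± 4.04 CPM. Cav1, the caveolar protein that holds nitric oxide synthase inactive, was at 823 ± 101.3 against 856 ± 225 CPM. The groups overlapped in all 20 genes. Bmp10 was under the filter, with at most 7 counts a heart. The partners on other chromosomes, including those for apelin and VEGF-A, are not analysed here.

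Of 46 other endothelial genes listed, 24 were in the table and 23 were tested, with a median log2 fold change of -0.03, and 11 were above 0 and 12 below. The sign of that median depended on the hearts: it was -0.09 without transferred heart 2, 0.11 without transferred heart 1 and 0.12 without the 2 letter-form hearts. By edgeR, 1 of the 23 passed the threshold, where 0.235% of all tested genes did: Aqp1, the water channel of capillary endothelium. It was at 808.4, 861.5, 726.9 and 959.5 CPM in control hearts and fell to 489, 355 and 407 CPM in transferred hearts, which is -1.01 as a log2 fold change (adjusted p = 0.0384 by edgeR). The call did not hold when any 1 control heart or transferred heart 2 was left out, with the identifier form as a covariate, with limma-voom, or without the 2 letter-form hearts. Aplnr minus the median of these 23 genes was -0.88 in log2 fold change. The highest 4 were Vwf (1.17, adjusted p = 0.1997), Calcrl (0.50), Sox17 (0.35) and Tm4sf1 (0.31, adjusted p = 0.185), and the next lowest after Aqp1 were Timp4 (-0.45), Tcf15 (-0.34) and Cavin2 (-0.18), each by edgeR. Tm4sf1 passed when transferred heart 3 was left out. Without transferred heart 2, the log2 fold change was 0.67 for Vwf, 0.20 for Calcrl, 0.12 for Sox17 and -0.91 for Timp4, and without control heart 3 that of Tcf15 was -0.04. In transferred hearts 1 to 3 Sox17 was at 11.6, 28.7 and 26.1 CPM and Timp4 at 34.7, 67.4 and 29.1 CPM, so the size of both depends on which heart is left out. The summed level of the 24 genes was 5893 to 7091 CPM in control and 5420 to 6680 CPM in transferred hearts, so the groups overlapped.

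By vessel type, 0 of 8 arterial, 0 of 7 venous, 0 of 7 lymphatic and 0 of 1 endocardial genes passed the edgeR test, with 2, 5, 3 and 0 at an unadjusted p under 0.05. DESeq2 called 1, 4, 2 and 0 of them and limma-voom 0 of each. Over all 7667 tested genes, edgeR called 18, DESeq2 252 and limma-voom 0, and 954 had an unadjusted p under 0.05 by edgeR. The edgeR test did call Ackr1, Sele and Fgl2 without transferred heart 1, Ackr1 and Vcam1 without transferred heart 3, and Ackr1 among all genes with at least 1 count. Sele, Vcam1 and Fgl2 are named here outside the rule. Among arterial genes, Dll4, a Notch ligand, had the lowest log2 fold change, -0.43 (adjusted p = 0.231), and Stmn2 the highest, 0.16. Without transferred heart 2 Dll4 was at -0.28. Stmn2 was above the control range (21.4 to 27.1 CPM) in that heart only, at 24.6, 33.6 and 24.7 CPM in transferred hearts 1 to 3. Dll4 and Efnb2, a membrane ligand of arteries with a log2 fold change of -0.36 (adjusted p = 0.0808), were the 2 of 8 whose groups did not overlap, both lower, where 5.22% of all tested genes were. Efnb2 is named outside the rule. The venous list, which shares Vwf with the wider list and includes adhesion genes induced in inflamed venules, had a median of 1.17. Of its 7 tested genes, Ackr1 was under the minimum of the low-count filter (0.485 CPM) in all 4 control hearts and entered only through the transferred hearts, so its direction is not read, here or in the venous counts just given, which include it. It held 3.5 to 9.5 counts in control hearts and 21, 118 and 35.5 in transferred hearts. Without Ackr1, an alternative chosen after seeing the data, the median was 1.10, from 0.16 for Nr2f2 to 2.45 for Selp, an adhesion receptor on activated venules. In 4 of these 6 genes the groups did not overlap and transferred hearts were higher, where 5.99% of all tested genes were. Transferred heart 2 stood apart: Selp was at 3.19, 25.5 and 7.16 CPM in transferred hearts and 1.46 to 3.16 CPM in control hearts. Without that heart the median of the 6 genes was 0.68. The lymphatic list had a median of 0.30, from -0.07 for Pdpn to 0.71 for Lyve1 (adjusted p = 0.128), and the endocardial gene Cytl1 was at -0.26. When 1 heart was left out the lymphatic median lay between 0.11 (without transferred heart 1) and 0.48 (without control heart 4), with 0.15 without control heart 3 and 0.20 without control heart 2, and it was 0.17 without the 2 letter-form hearts. Pdpn was at 0.20 without transferred heart 3 and -0.23 without transferred heart 2. Whether the genes of the lymphatic list report on lymphatic vessels alone was not tested. Cytl1 was at -0.15 without control heart 1 and -0.07 without the letter-form hearts.

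**Figure D5:**
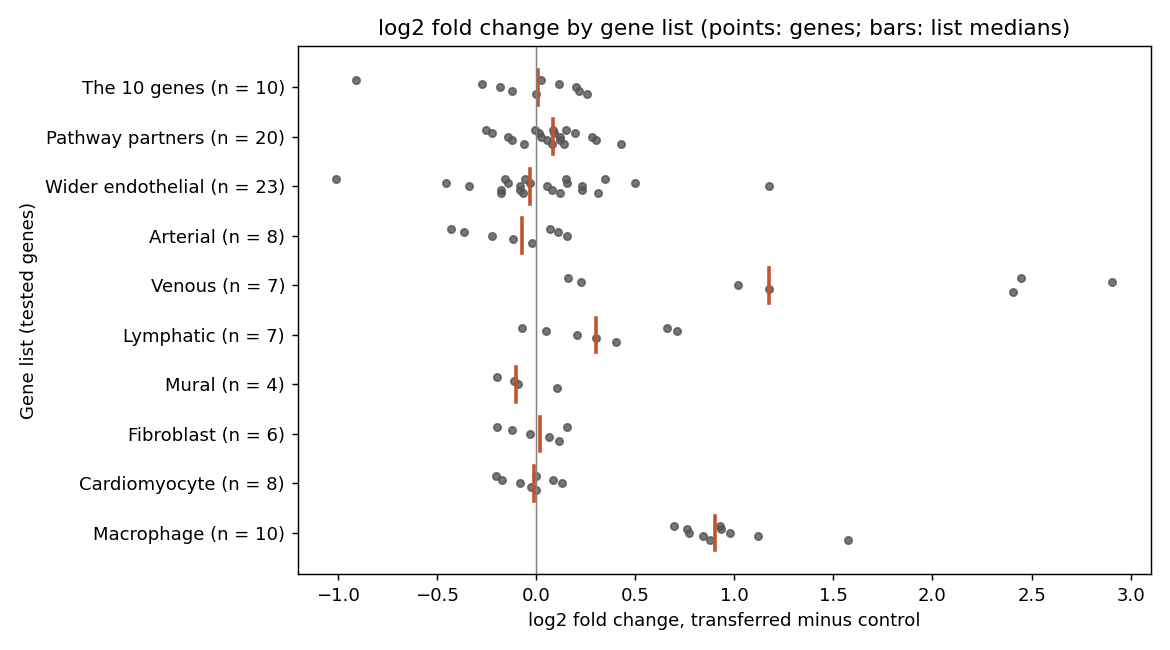
log2 fold change, transferred minus control (x axis), of every tested gene (points) in the 10 genes and in the lists set beside them (y axis), with the median of each list as a bar. The median is 0.01 for the 10 genes, -0.03 for the wider endothelial list, 1.17 for the venous list (Ackr1 included) and 0.90 for the macrophage list.

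Markers of other cell types were measured in the same hearts. All 10 tested macrophage genes had a log2 fold change above 0, with a median of 0.90, and 2 passed the edgeR test, Mrc1 (0.77, adjusted p = 0.0384) and C1qb (0.98, adjusted p = 0.0384). The list ran from Laptm5 (0.70) to Fcgr1 (1.58), and no marker was at 0 in all hearts. Over all tested genes edgeR called 0.235%. DESeq2 called 9 of the 10, and 252 of all 7667 tested genes, and limma-voom called 0 of either. Neither edgeR call, of Mrc1 or C1qb, held with the identifier form as a covariate, without the 2 letter-form hearts, or when any 1 control heart or transferred heart 1 or 2 was left out. The edgeR count of 2 was 8 without transferred heart 3, 6 with total count scaling, 5 among all genes with at least 1 count and 3 with RLE scaling. Its summed level was 468.7 to 703.6 CPM in control and 820.6 to 1219 CPM in transferred hearts, without overlap. The part of this in the difference of Aplnr was not tested. The median was -0.10 for 4 mural genes (Rgs5 -0.20 to Abcc9 0.10), 0.02 for 6 fibroblast genes (Col1a2 -0.20 to Gsn 0.16) and -0.01 for 8 cardiomyocyte genes (Ckm -0.20 to Tnnt2 0.13), and their summed levels overlapped between the groups. When 1 heart was left out these medians lay between -0.13 and 0.11, and those of the fibroblast and cardiomyocyte lists changed sign. Most of the mural sum (6325 to 8091 CPM in control hearts) was the single gene Des, at 4075 to 5752 CPM there. Whether the mural genes report on mural cells alone was not tested. In each of these 3 lists 0 genes passed by edgeR, with 0 at an unadjusted p under 0.05, where 954 of all 7667 tested genes were. By DESeq2 and by limma-voom 0 passed in each list.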

How the data were processed

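Polyadenylated RNA from apical myocardium was sequenced in 4 control and 3 transferred hearts, in pairs of 75 nt reads at about 55 M reads a sample per the series' design text. The authors deposited a table of raw counts per gene. The submitters' processing notes name STAR 2.7.2b, featureCounts 1.6.4, cutadapt 2.5, bcl2fastq 2.20.0.422, DESeq2 1.22.2 and the build GRCm38.p6, with no role or order. Of the deposited values, 4.63% had a fractional part, so they were treated as estimated counts and rounded before testing. All 20343 gene identifiers and start positions matched RefSeq for that build, and 1 unfinished row was left out. Reads shared by several genes may have been divided between them.

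Genes passing filterByExpr were scaled by TMM (trimmed mean of M values) and tested with the edgeR 4.0.16 quasi-likelihood test with robust estimation in R 4.3.3, with Benjamini-Hochberg adjustment over all 7667 genes and a threshold of 0.05. CPM is TMM scaled; log2 CPM used a prior count of 2. Totals cover the analysed rows only, where 3 counts equal 0.119 to 0.183 CPM. On simulated counts the fit recovered 84.5% of 200 genes changed 2-fold among 7588 tested. That simulation gave every gene the same dispersion (biological coefficient of variation 0.164) and no outlying heart. The share recovered is therefore not the sensitivity reached in these hearts. The 9 pairs of libraries of the same group differed by more than sampling noise (chi-square per degree of freedom at least 18.2). Beyond separate titles, the labels do not say how the hearts were obtained, so p-values measure only the spread between these samples, which may be partly technical. Members and lists were chosen with earlier results of these data known. Named genes were all members, the 4 most abundant partners of each of the growth factor group and the endoglin, nitric oxide and sphingosine group, list genes past the threshold, the highest and lowest log2 fold change with a mean of at least 1 CPM in each list but the partners (4 each way in the wider endothelial list), the 5 most like Aplnr by each r and the 3 nearest tested neighbours on each side. Alternatives were RLE and total count scaling, other filters, DESeq2 1.42.0, limma-voom (limma 3.58.1), a fit without robust estimation, the identifier form as a covariate or without its 2 letter-form hearts, and leaving out each heart.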

Additional observations from a re-analysis of the deposited data

How the results depend on the processing

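The difference between Aplnr and the median of the other 9 genes, -0.93, kept its direction and stayed within the spread between hearts under every alternative run for it, from -1.04 to -0.78. It was -0.93 with the mean of the 9 genes. Calls were less stable. Against 18 genes called (10 higher, 8 lower), scaling by total counts called 35, of which 26 were higher and 9 lower, all genes with at least 1 count 81, and DESeq2 252, while limma-voom, the identifier form as a covariate and the fit without the 2 letter-form hearts gave 0 (907, 973 and 1054 had an unadjusted p under 0.05). Leaving out 1 heart gave 0 to 140 (0 without control heart 1, 2 or 4 or transferred heart 2, with 658 to 831 at an unadjusted p under 0.05, and 140 without transferred heart 3). The calls among the 10 genes (1, Aplnr) and among the wider endothelial genes (1, Aqp1) became 0 and 0 with limma-voom, with the covariate and without the letter-form hearts, and were 0 to 1 and 0 to 2 when 1 heart was left out. Partner genes stayed at 0 calls under every alternative run. S1pr1 went from 0.21 to -0.06 without transferred heart 2. Leaving out hearts removes samples from the fit, and for the other settings the cause was not tested. The scalings moved the median log2 fold change of all tested genes by at most 0.015. No paired analysis was possible because the titles of the 2 groups share 1 replicate number and give no pairing.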

Other observations

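After the group means were subtracted, Pearson's r of log2 CPM over the 7 hearts was positive in all 10 pairs among Kdr, Flt1, Tek, Eng and Emcn. It ran from 0.29 between Flt1 and Tek to 0.93 between Tek and Emcn, with 0.86 between Flt1 and Eng and 0.72 between Kdr and Eng. Egfl7 had negative r to each of these 5, from -0.89 to Eng to -0.67 to Tek. The 5 genes were picked from the members after these values were seen. Their shared sign was thus fixed by that choice, and nothing is read from it. Other pairs of members had either sign, such as -0.38 for Kdr and S1pr1 and 0.34 for Kdr and Tie1. All these values are descriptions over 7 hearts that share their libraries across genes.

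Wars2, the mitochondrial tryptophanyl-tRNA synthetase gene, followed Aplnr over the hearts with little change in level. The r of 0.97 includes the difference between the groups that chose Aplnr. Wars2 was not among the genes named as highest after the group means were subtracted. Its level was 27.2, 26.7, 27.1 and 27.2 CPM in control hearts and 24.5, 25.4 and 26.0 CPM in transferred hearts, a log2 fold change of -0.10.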
